A study of Mus musculus with 27 samples.

Results

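The genes examined here were Axl and Mertk, receptors of the TAM family, Gas6, their ligand, Itgav, an integrin chain, and Elmo1, a cytoplasmic adaptor. Together they stand for the steps by which a macrophage binds and engulfs a dying cell. A window entered the set when the deposited H3K27ac table named 1 of the 5 genes as its nearest gene, and a factor site entered it when it lay between a gene's outermost windows plus 5 kb on each side. This gave 85 of 70300 windows: 8 for Axl, 22 for Mertk, 4 for Gas6, 15 for Itgav and 36 for Elmo1. By annotation, 64 of the 85 were intronic, 13 intergenic and 8 at a promoter. The same regions held 61 of 44463 LXR sites in the control list and 83 of 51709 in the NASH list.

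The cells were Kupffer cells, which are macrophages that reside in liver sinusoids. They had been sorted as F4/80-high, Tim4-positive cells from C57BL/6J mice fed either a control diet or a diet used to bring on NASH, a fatty liver disease with inflammation. Chromatin immunoprecipitation followed by sequencing had been done for the acetylated histone mark H3K27ac, for the nuclear receptor LXR, for the stress-induced transcription factor ATF3 and for the acetyltransferase P300, with 2 libraries per diet each. For H3K27ac, livers of both diets had been digested with the transcription inhibitor flavopiridol present; the protocol in the labels does not describe the preparation for the 3 factors. The labels give no age or number of weeks on diet, and they do not say whether replicates came from separate mice, so p-values measure only the spread between these libraries. H3K27ac was deposited as tags (reads counted as single positions) per 10000000 in each accessible window, and the 6 factor lists each hold sites shared by both libraries of 1 diet.

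Efferocytosis is the clearance of apoptotic cells. Gas6 binds phosphatidylserine exposed on the dying cell and, at its other end, the receptor tyrosine kinases Axl and Mertk. Integrin alpha v, encoded by Itgav, is reached through other bridging proteins and also activates latent TGF-beta, while Elmo1 joins a Dock protein to switch on Rac and reshape the actin around the particle. The cholesterol of the engulfed cell activates LXR, and Mertk is a known LXR target gene in macrophages.

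The promoters of 4 members are shown to set a promoter without any factor site beside 3 that had them: the start-site windows of Axl, Mertk and Itgav held sites of LXR and P300 in both diets, that of Gas6 held no site in any list. Each sequence is the 250 bases before the start site in RefSeq (GRCm38.p6), read 5′ to 3′ on the gene's own strand. Capitals mark every match, on either strand, to GGAAGT (the core bound by PU.1 and other ETS factors) or GGGCGG (the GC box). AGGTCA (the core element of nuclear receptors), TGAGTCA (AP-1) and TGACGTCA (the cyclic AMP response element) were searched in the same way and had no match in these 4 windows.
Axl, chr7:25788734-25788983, minus strand: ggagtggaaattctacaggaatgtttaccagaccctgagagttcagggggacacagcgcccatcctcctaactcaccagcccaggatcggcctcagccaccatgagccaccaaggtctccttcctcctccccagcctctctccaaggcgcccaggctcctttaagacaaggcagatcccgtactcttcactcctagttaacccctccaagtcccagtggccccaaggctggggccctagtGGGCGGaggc
Mertk, chr2:128698665-128698914, plus strand: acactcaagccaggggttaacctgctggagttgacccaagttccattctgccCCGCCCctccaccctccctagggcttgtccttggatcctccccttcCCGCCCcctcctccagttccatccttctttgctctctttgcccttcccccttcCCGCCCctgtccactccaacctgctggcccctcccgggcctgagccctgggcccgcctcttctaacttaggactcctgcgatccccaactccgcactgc
Gas6, chr8:13494536-13494785, minus strand: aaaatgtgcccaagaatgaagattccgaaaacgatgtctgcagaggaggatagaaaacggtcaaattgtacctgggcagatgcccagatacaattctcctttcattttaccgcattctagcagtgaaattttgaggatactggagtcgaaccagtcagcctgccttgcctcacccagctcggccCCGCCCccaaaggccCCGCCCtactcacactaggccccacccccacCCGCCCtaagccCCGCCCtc
Itgav, chr2:83724147-83724396, plus strand: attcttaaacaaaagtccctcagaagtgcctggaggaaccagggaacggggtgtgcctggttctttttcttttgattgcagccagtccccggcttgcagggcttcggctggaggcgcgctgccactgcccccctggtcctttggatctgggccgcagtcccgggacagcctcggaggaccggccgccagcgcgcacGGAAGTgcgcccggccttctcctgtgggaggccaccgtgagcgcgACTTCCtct

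Itgav was the only one of these 4 with GGAAGT, starting 54 and 9 bases before the start site, and 19.7% of 32851 promoter windows of this length held that match. The GC box was found at 3 places at Mertk, 4 at Gas6 and 1 at Axl, against a share of 32.7% of all such windows. AGGTCA stood in 14.0%, TGAGTCA in 4.46% and TGACGTCA in 1.55% of all windows. The promoters of Elmo1 matched RefSeq as well, so all 5 members were found.

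Sequencing depth for H3K27ac was 9468035 and 22615879 tags in the control libraries and 18749728 and 19231109 in the NASH libraries, of which 7.91% to 9.60% fell in the windows. As deposited, the table was shifted toward lower values in NASH: the median log2 change was -0.29 over 11593 gene sums and -0.26 over 35947 windows tested. Log2 changes below are given relative to these medians, on the log2(value + 1) scale, while each limma adjusted p tests the unshifted change. Adjusted p-values after TMM scaling, which removes that shift, are given where they change the call of a gene or window named here. Of 12 Kupffer cell marker genes, 8 had lower H3K27ac sums in NASH at adjusted p under 0.05 (limma), or 7 with TMM. Their summed level was 2821 to 2920 in the control libraries and 1684 to 1806 in the NASH libraries. Timd4, which encodes the Tim4 protein used for sorting, went from 256.65 and 255.57 to 21.31 and 26.00. Summed markers of hepatocytes (5 of 11 in the table) were 35.4 to 40.1 in control and 31.2 to 33.1 in NASH, those of sinusoidal endothelium (7 of 11) 82.2 to 139 and 76.4 to 94.4, and those of monocytes and recruited macrophages (7 of 8) 528 to 642 and 556 to 571, with Itgax raised and Plac8 lowered. With TMM, 3 of the 6 tested monocyte and recruited macrophage markers were raised and 1 lowered, against 7.25% and 6.20% of all gene sums. The summed levels are as deposited and carry the shift toward lower values in NASH. Few markers of the other lists could be tested. By limma as deposited, 2 of 4 dendritic cell markers and 1 of 1 neutrophil markers were lowered, or 1 and 0 with TMM. For T and NK cells 1 of 2 was raised, and for hepatocytes and for endothelium 1 of 3 was lowered. No tested stellate cell, cholangiocyte or B cell marker was called. Of all gene sums, 11.0% were lowered and 2.89% raised, and the difference of the lists from these shares was not tested. No marker in the table was at 0 in all 4 libraries.

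Gas6, the ligand, carried little H3K27ac. Its 4 windows summed to 20.07 and 16.36 in the control libraries and to 16.53 and 17.16 in the NASH libraries (mean 18.2 ± 2.62 and 16.8 ± 0.445, SD, n = 2). The diets overlapped, and the relative log2 change was 0.19 ± 0.37 (SE, limma adjusted p = 0.889). Per kb of window Gas6 averaged 18.7 normalised tags, the 17.6th percentile of the genes tested, and the lowest of the 5 members. The window at its start site, 4 bp upstream at chr8:13494435-13494644, held 1 tag, 1 tag, 0 tags and 1 tag. These counts are under the 3 tags that a count of 0 allows, so the mark was not detectable there at this depth. The remaining signal came from intergenic windows 6.83 to 9.87 kb upstream. The highest, at 9.52 kb, held 8.45, 8.40, 6.93 and 6.76 normalised tags in control 1, control 2, NASH 1 and NASH 2. Its neighbour at 9.87 kb had the opposite order, with 6.34 and 5.75 in control and 9.07 and 8.32 in NASH, and neither passed the test (limma adjusted p = 0.779 and 0.60). Both LXR sites of Gas6, at 6.83 and 9.87 kb upstream, stood in both diets, the better one at rank 37466 of 44463 in control and 24502 of 51709 in NASH.

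Axl was the one member whose summed H3K27ac passed the test in the main fit. Its 8 windows summed to 107.74 and 93.30 in control and 70.93 and 49.92 in NASH (mean 100.5 ± 10.2 and 60.4 ± 14.9, SD, n = 2). Both NASH libraries lay below both control libraries, and the relative log2 change was -0.46 ± 0.23 (SE, limma adjusted p = 0.0357). Of the 8 windows, 3 were on the control list of accessible regions only and 0 on the 20-week diet list only. A lower NASH value could therefore be built into this sum, and a sum without these 3 windows was not tested. Of all gene sums tested, 11.0% were called lower and 2.89% raised, and after TMM scaling or with edgeR 6.20% and 6.59% were called lower. The Axl call was lost with TMM (adjusted p = 0.137), with edgeR (0.139), without NASH replicate 2 (0.419) and without control replicate 1 (0.139).

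At Axl, the called window and the highest window both lay near the start site. Its only called window, in intron 1 at chr7:25788240-25788440, 393 bp downstream of the start site, held 30.63 and 13.71 normalised tags in control and 5.87 and 7.28 in NASH. The groups did not overlap, although the 2 control libraries stood far from each other. The relative log2 change was -1.26 ± 0.44 (SE, limma adjusted p = 0.0452, with TMM 0.0879), and the call held among the left-out libraries only without control replicate 2; without control replicate 1 the change was -0.78, without NASH replicate 1 -1.05 and without NASH replicate 2 -1.45, none of them called. This window was on the control list of accessible regions only, so a lower NASH value could be built into it. It overlapped no site of any factor. The promoter window, chr7:25788692-25788896, held 17.96, 23.88, 17.60 and 10.92 in control 1, control 2, NASH 1 and NASH 2, and the highest window, in intron 2 at 1.6 kb, held 32.74, 21.67, 18.13 and 17.16. In both windows the NASH libraries were the lower ones, yet neither passed (limma adjusted p = 0.397 and 0.318). In intron 4, 3.73 kb downstream, the diets overlapped, at 11.62 and 14.59 against 16.53 and 8.32. Altogether 4 of the 5 tested Axl windows had both NASH libraries below both control libraries, against 38.1% of all tested windows.

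Deep inside Axl stood a site that all 3 factors occupied in both diets. The window in intron 6, chr7:25776794-25776995, 11.8 kb downstream of the start site, overlapped the LXR site of rank 69 of 44463 in control and rank 212 of 51709 in NASH. The P300 site there ranked 121 of 25219 in control and 139 of 52628 in NASH, by the authors' own score within each list, and an ATF3 site was present in both diets. That window spanned 201 bp, and the nearest other Axl window lay 4.43 kb downstream of the start site. H3K27ac on either side of the factor sites was therefore not measured. Within the window H3K27ac was 3.17 and 2.65 normalised tags in control and 0 and 0.52 in NASH, too few to enter the test. For comparison, chosen after this value was seen, the 101 windows that held the 100 highest-ranked LXR sites in control had a median of 15.5 normalised tags (10th to 90th percentile 4.68 to 43.1), and 3 of them, the Axl window included, were at or below its value of 2.91. Among 504 windows at the 500 highest-ranked NASH sites, the median was 9.71 and 2 windows, again with that of Axl, were at or below its value of 0.26.

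**Figure D1:**
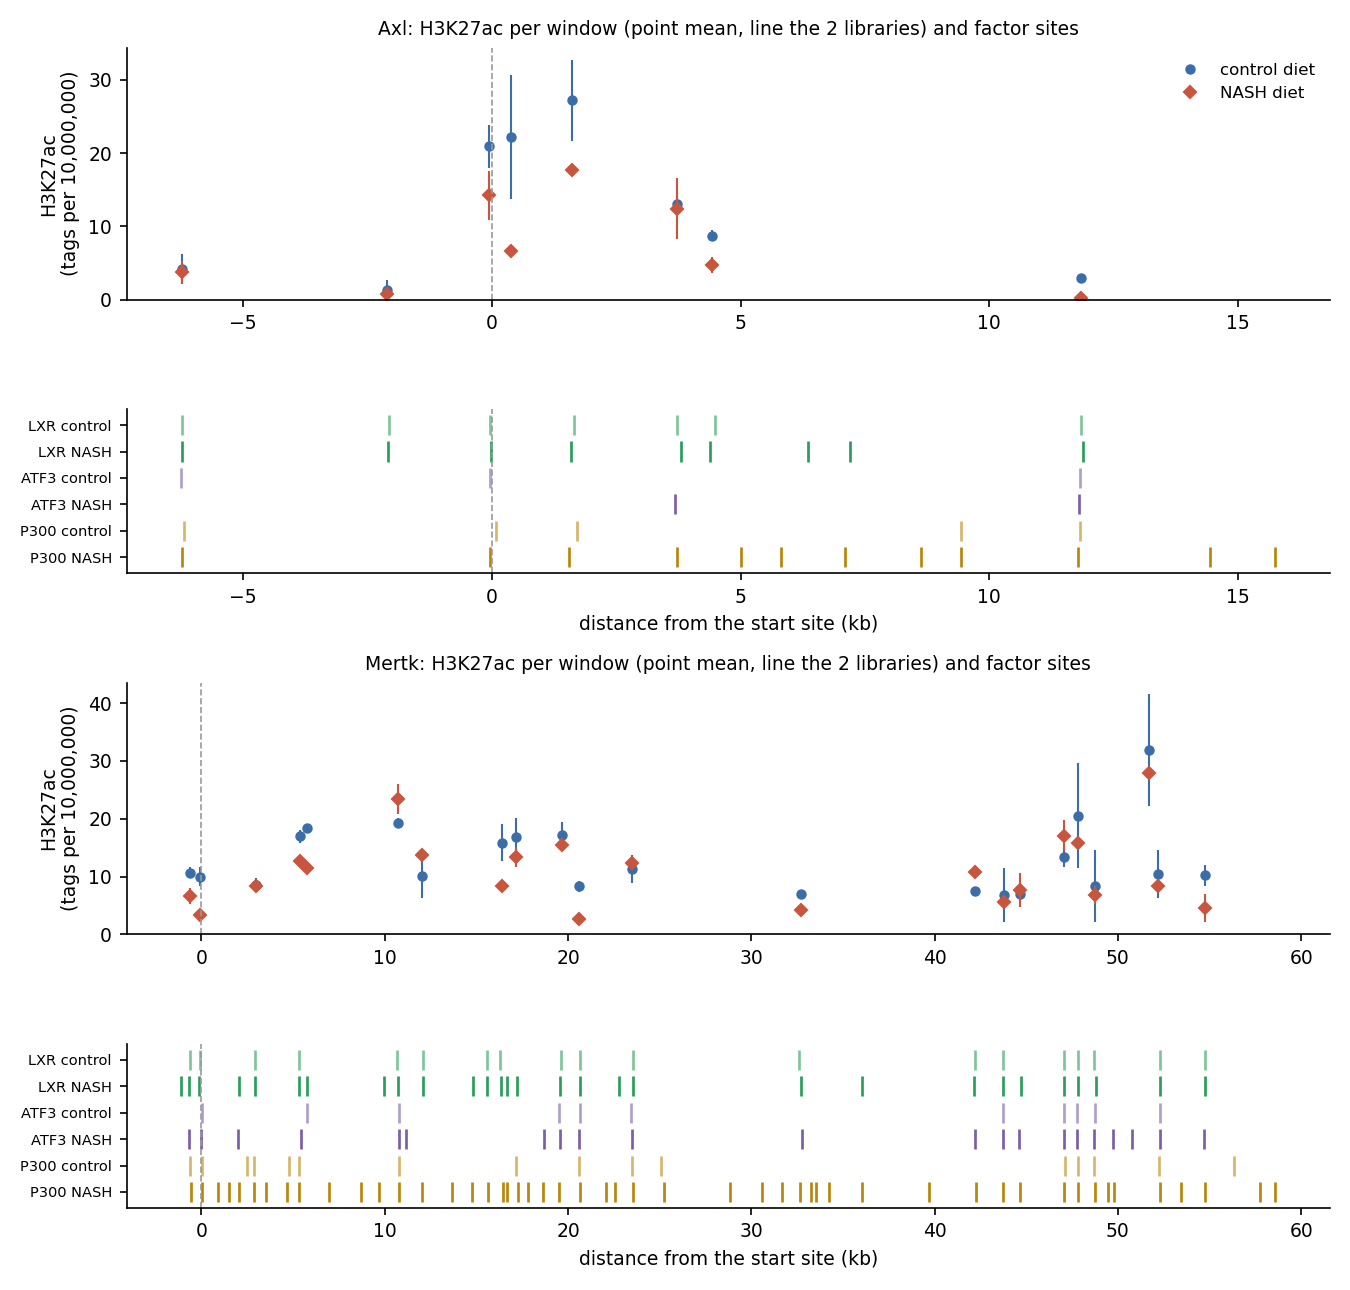
H3K27ac per window (upper panel of each gene, normalised tags per 10000000; points are the mean of 2 libraries and lines span them) and factor sites (lower panel, 1 tick per site) by distance from the start site in kb, for Axl and Mertk. At Axl the control points stand above the NASH points from the start site to 1.6 kb, and the window 11.8 kb downstream carries sites of all 3 factors with H3K27ac near 0; at Mertk the NASH list of P300 has 50 ticks and the control list 16.

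Mertk had the most windows and the highest summed H3K27ac of the receptors. Its 22 windows summed to 264.04 and 309.08 in control and 243.20 and 238.68 in NASH (mean 286.6 ± 31.8 and 240.9 ± 3.20, SD, n = 2), the 95.2nd percentile of all tested gene sums. Both NASH libraries lay below both control libraries as deposited, but the change was close to the median gene's, with a relative log2 change of 0.04 ± 0.14 (SE, limma adjusted p = 0.269, with TMM 0.910). Of the 22 windows, 12 were on the control list of accessible regions only and 0 on the 20-week diet list only. A lower NASH value could therefore be built into this sum too. All 22 windows passed the filter on low values. Both NASH libraries lay below both control libraries in 8 of them and above in 2, against 38.1% and 15.0% of all tested windows, and none was called.

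Most of the Mertk signal lay away from its promoter, as did 20 of its 22 windows. Windows farther than 1 kb from the start site held 91.2% and 94.1% of the summed signal in control and 95.2% and 96.5% in NASH. The 2 promoter windows summed to 23.24 and 18.13 in control and to 11.73 and 8.32 in NASH, and the 20 others to 240.80 and 290.95 against 231.47 and 230.36. The distal windows thus stood 0.75 ± 0.33 log2 units above the promoter windows in their change, relative to the median gene, which did not pass the test of that difference (limma adjusted p = 0.248; 1.24% of 4184 genes were called in either direction). Without control replicate 2 the same difference passed, at 1.01 and an adjusted p of 0.0352.

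The lowest relative values at Mertk belonged to 2 windows with strong factor sites. At the start site, chr2:128698712-128698950, H3K27ac was 11.62 and 8.40 in control and 3.73 and 3.12 in NASH (relative log2 change -1.04, limma adjusted p = 0.131). That window overlapped the P300 site of rank 151 of 25219 in control and 457 of 52628 in NASH, and sites of LXR and ATF3 in both diets. In intron 1, 20.6 kb downstream at chr2:128719419-128719651, H3K27ac was 7.39 and 9.29 in control and 2.67 and 2.60 in NASH (relative log2 change -1.09, limma adjusted p = 0.136). The LXR site there ranked 862 of 44463 in control and 324 of 51709 in NASH, the best LXR rank at Mertk. In both windows the diets did not overlap, and neither difference passed. Both passed the filter on low values only through the control libraries, so a lower NASH value was built into their being tested. In tags, the start-site window held 11 and 19 in control and 7 and 6 in NASH. The window at 20.6 kb held 7 and 21 against 5 and 5. Another LXR window of intron 1, 16.4 kb downstream, with 12.67 and 19.01 in control and 9.07 and 7.80 in NASH, did not pass either (limma adjusted p = 0.251). Strong sites also stood where values were not lower. The window at 10.7 kb, named after its values were seen, had LXR rank 1836 in control and 2104 in NASH. It held 20.07 and 18.57 in control and 20.80 and 26.00 in NASH (relative log2 change 0.52, limma adjusted p = 0.680). At 47.1 kb the relative log2 change was 0.59 (limma adjusted p = 0.640).

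A second group of Mertk sites lay in intron 4. The windows at 47.1, 47.8 and 48.8 kb downstream each overlapped sites of LXR, ATF3 and P300 in both diets. The middle one, chr2:128746613-128746820, held 29.57, 11.50, 16.00 and 15.60 normalised tags in control 1, control 2, NASH 1 and NASH 2, and its neighbour at 48.8 kb held 2.11, 14.59, 5.33 and 8.32. The 2 control libraries differed more from each other than from NASH in both, so no difference between diets was detectable (limma adjusted p = 0.790 and 0.919). The highest Mertk window, in intron 5 at chr2:128750508-128750708, 51.7 kb downstream, overlapped no factor site and held 22.18, 41.56, 28.27 and 27.56 (limma adjusted p = 0.861). Its neighbour at 52.2 kb overlapped sites of LXR, ATF3 and P300 in both diets.

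**Figure D2:**
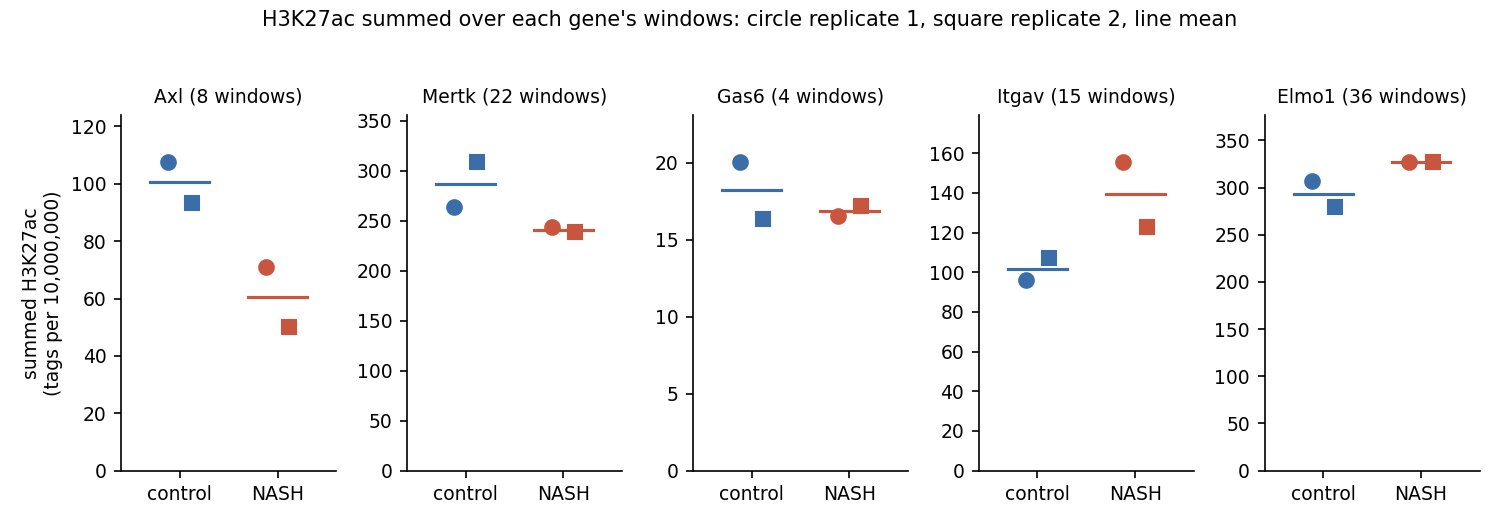
H3K27ac summed over each gene's windows, in normalised tags per 10000000, per library (circle replicate 1, square replicate 2; lines are means of 2 libraries), each panel with its own axis from 0. NASH libraries lie below control at Axl and Mertk, above at Itgav and Elmo1, and overlap at Gas6.

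Itgav had higher summed H3K27ac in NASH as deposited, where Axl and Mertk had lower sums; the difference between the genes was not tested. Its 15 windows summed to 96.11 and 107.02 in control and 155.74 and 122.72 in NASH (mean 101.6 ± 7.71 and 139.2 ± 23.3, SD, n = 2). Both NASH libraries were above both control libraries. The relative log2 change was 0.73 ± 0.19 (SE). It did not pass as deposited (limma adjusted p = 0.130), and it passed with TMM scaling (0.00495) and with edgeR (0.00386), under which 7.25% and 7.39% of gene sums were called raised.

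Summed over windows away from the promoter alone, H3K27ac at Itgav was higher in NASH. Of the 15 Itgav windows, 6 were on the 20-week diet list of accessible regions only and 0 on the control list only. Most of these 6 were distal, so a difference could be built into the distal sum. The same holds for the sum of all 15 windows, and sums without these 6 were not tested. The 12 distal windows summed to 27.46 and 37.16 in control and 64.00 and 55.12 in NASH, a relative log2 change of 1.14 ± 0.24 (SE, limma adjusted p = 0.00859), while 6.47% of 6819 distal sums were called raised. The 3 promoter windows summed to 68.65 and 69.86 in control and 91.74 and 67.60 in NASH, overlapping between diets (0.47 ± 0.25, limma adjusted p = 0.710). Of 8644 promoter sums, 0.937% were called raised and 3.40% lowered. The difference between distal and promoter change, 0.66 ± 0.32 relative to the median gene, did not pass its own test (limma adjusted p = 0.286). The window nearest the start site, chr2:83724310-83724514, held 19.01, 11.94, 12.27 and 10.40 in control 1, control 2, NASH 1 and NASH 2, and the highest one, in intron 1 at 590 bp, held 33.80, 32.72, 39.47 and 35.88. Neither passed (limma adjusted p = 0.60 and 0.746).

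One Itgav window was called. It was intergenic at chr2:83701229-83701429, 23.1 kb upstream, and held 0 and 2.21 normalised tags in control and 8.0 and 7.28 in NASH. Its relative log2 change was 2.53 ± 0.67 (SE, limma adjusted p = 0.0460, with TMM 0.0331). The call was lost without control replicate 1 (1.61), without NASH replicate 1 (2.54) and without NASH replicate 2 (2.53). It passed the filter on low values only through the NASH libraries, so a difference was built into its being tested, and in tags it held 0 and 5 in control and 15 and 14 in NASH. The windows around it held 0 and 0 in control against 1.07 and 0 in NASH at 24.9 kb upstream, 0 and 0.44 against 7.47 and 2.60 at 23.5 kb, and 3.17 and 5.31 against 13.87 and 7.80 at 18.4 kb. The diets overlapped at 24.9 kb and did not at the other 2, the first 2 were too low to be tested, and the last did not pass (limma adjusted p = 0.181). The window at 18.4 kb also passed the filter only through the NASH libraries, so a difference was built into its being tested as well. These 4 windows were on the 20-week diet list of accessible regions and not on the control list. In all, 6 of the 15 Itgav windows (40%) were on that list only, compared with 9.72% of all windows, and none of the Axl or Mertk windows was. Conversely 12 of 22 Mertk windows (54.5%) and 3 of 8 Axl windows (37.5%) were on the control list only, compared with 28.2% of all windows.

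Factor sites at this stretch were found in NASH for ATF3 and P300. An ATF3 site overlapped the window 23.5 kb upstream in NASH and not in control, and the called window itself overlapped no site. The window 18.4 kb upstream overlapped an LXR site in both diets and a P300 site in NASH. The best LXR site of Itgav stood 9.48 kb upstream, at rank 3677 of 44463 in control and 1932 of 51709 in NASH, together with ATF3 and P300 in both diets. H3K27ac there was 3.17, 5.75, 2.67 and 3.12 and too low to be tested. The promoter window held the best P300 site, of rank 1068 of 25219 in control and 724 of 52628 in NASH.

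**Figure D3:**
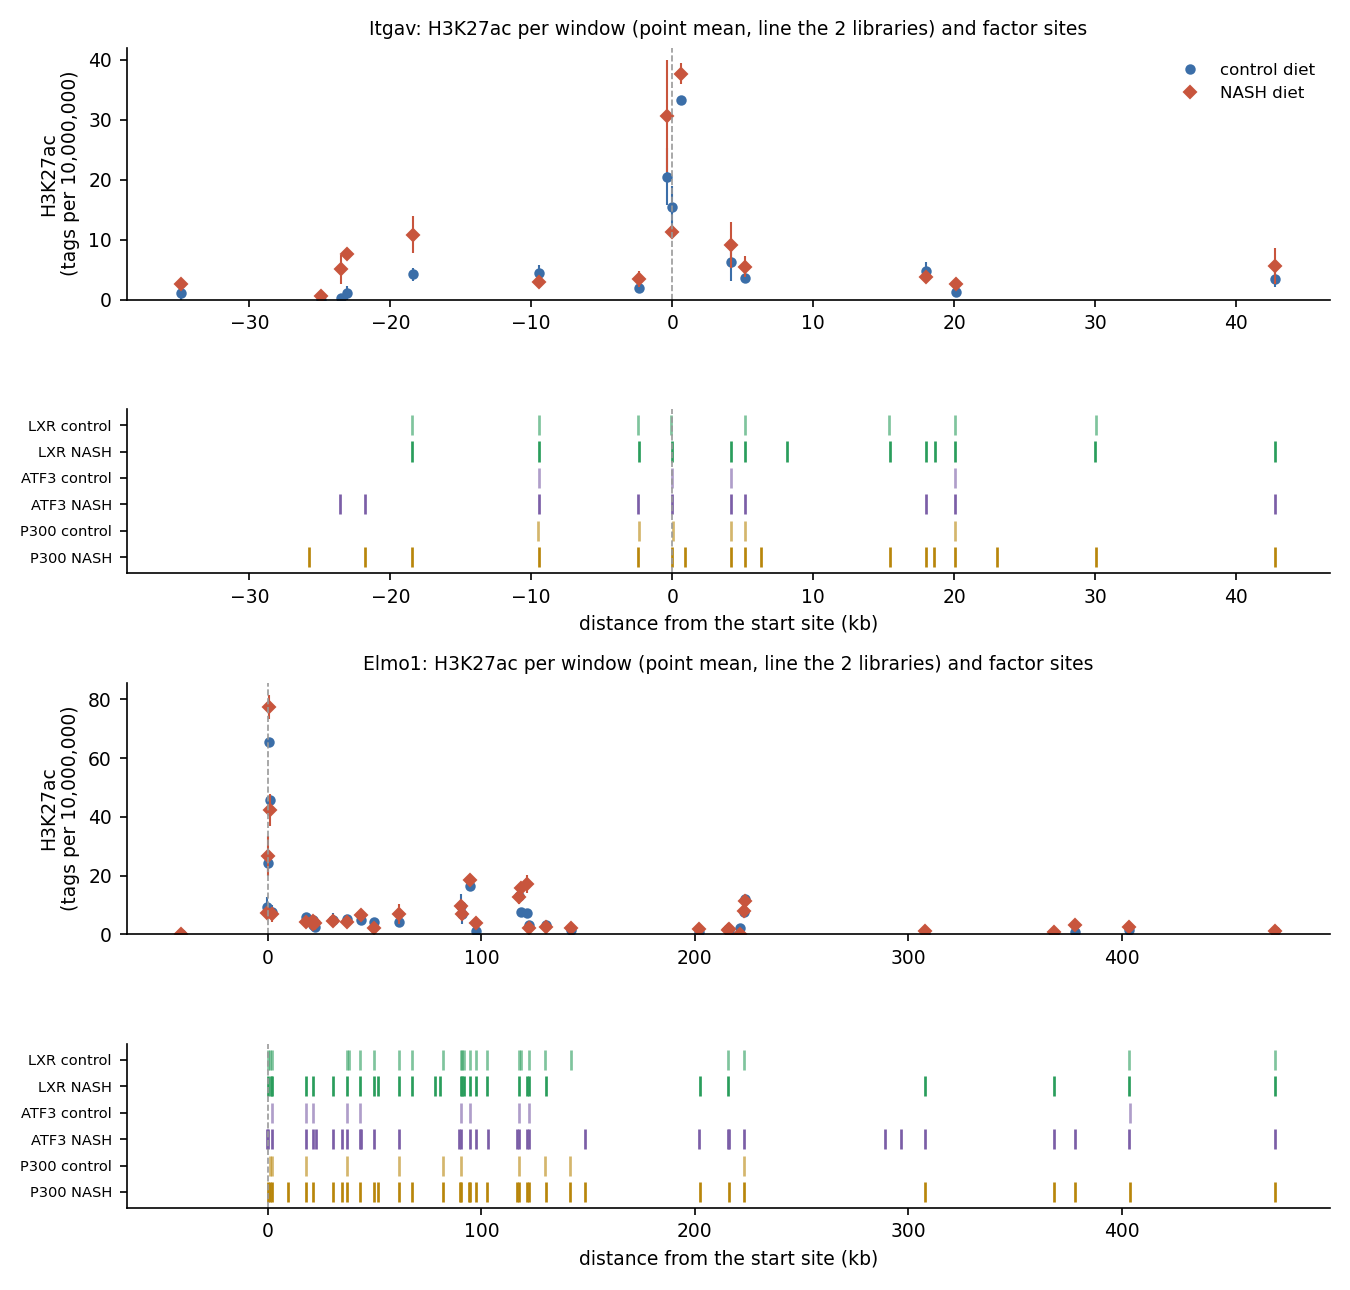
H3K27ac per window (upper panel of each gene, normalised tags per 10000000; points are the mean of 2 libraries and lines span them) and factor sites (lower panel, 1 tick per site) by distance from the start site in kb, for Itgav and Elmo1. NASH points stand above control from 23.5 to 18.4 kb upstream of Itgav and at 118.5 and 121.5 kb within Elmo1.

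Elmo1, the engulfment adaptor, had the largest region and, on average, the largest summed signal of the 5. Its 36 windows summed to 307.32 and 279.01 in control and 327.47 and 327.60 in NASH (mean 293.2 ± 20.0 and 327.5 ± 0.0919, SD, n = 2). Both NASH libraries were above both control libraries, with a relative log2 change of 0.45 ± 0.13 (SE). The change did not pass as deposited (limma adjusted p = 0.444) and passed narrowly with TMM scaling (0.0461) and with edgeR (0.0446). Windows farther than 1 kb from the start site held 50.2% to 55.2% of the signal, and 4 windows near it held the rest. The highest of all member windows was there, in intron 1 at chr13:20091108-20091308, with 65.48 and 65.44 in control and 81.60 and 73.32 in NASH, the 98.2nd percentile of all windows (limma adjusted p = 0.565). It overlapped no factor site, while its neighbour 992 bp downstream of the start site overlapped sites of LXR and P300 in both diets. The window at the start site, chr13:20090453-20090679, held 27.46, 21.22, 33.60 and 19.76 and the diets overlapped (limma adjusted p = 0.90).

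Inside Elmo1, 2 tested windows away from the promoter had both NASH libraries above both control libraries, and they are described because of these values. In intron 4, 121.5 kb downstream, H3K27ac was 7.39 and 7.07 in control and 20.27 and 14.04 in NASH (relative log2 change 1.38, limma adjusted p = 0.113, with TMM 0.0497). The LXR, ATF3 and P300 sites that overlapped this window were all in the NASH lists only. Nearby in intron 3, 118.5 kb downstream, values were 7.39 and 7.96 in control and 14.40 and 17.16 in NASH (limma adjusted p = 0.174), and an LXR site overlapped the window in control only. The windows on either side overlapped between diets, with 10.56 and 15.92 in control against 14.93 and 10.40 in NASH at 117.8 kb (limma adjusted p = 0.956) and 4.22 and 2.21 against 2.13 and 2.60 at 122.4 kb, which was too low to be tested. At the LXR windows 2.00 and 90.4 kb downstream the diets overlapped, with 5.28, 10.17, 4.27 and 9.36 at the first and 13.73, 5.31, 9.60 and 9.88 at the second (limma adjusted p = 0.873 and 0.881). The best LXR rank of Elmo1 in NASH, 3369 of 51709, was at the first of these. Of the 36 windows, 13 passed the filter; 3 of them, that at 0.70 kb included, had both NASH libraries above both control libraries and none had both below, against 15.0% and 38.1% of all tested windows.

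Over the 5 genes, 48 of 85 windows passed the filter, and 1 was called raised and 1 lowered (limma, adjusted p under 0.05 with a change of 1 or more on the log2 scale). Over all windows 2.00% were called raised and 4.59% lowered. An unadjusted p under 0.05 was found for 8 of the 48, against 23.2% of all tested windows. With TMM scaling 2 were called raised (at Itgav and Elmo1) and 0 lowered, against 3.34% and 2.51% of all windows. The edgeR test gave the same counts, against 3.78% and 3.14%.

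**Figure D4:**
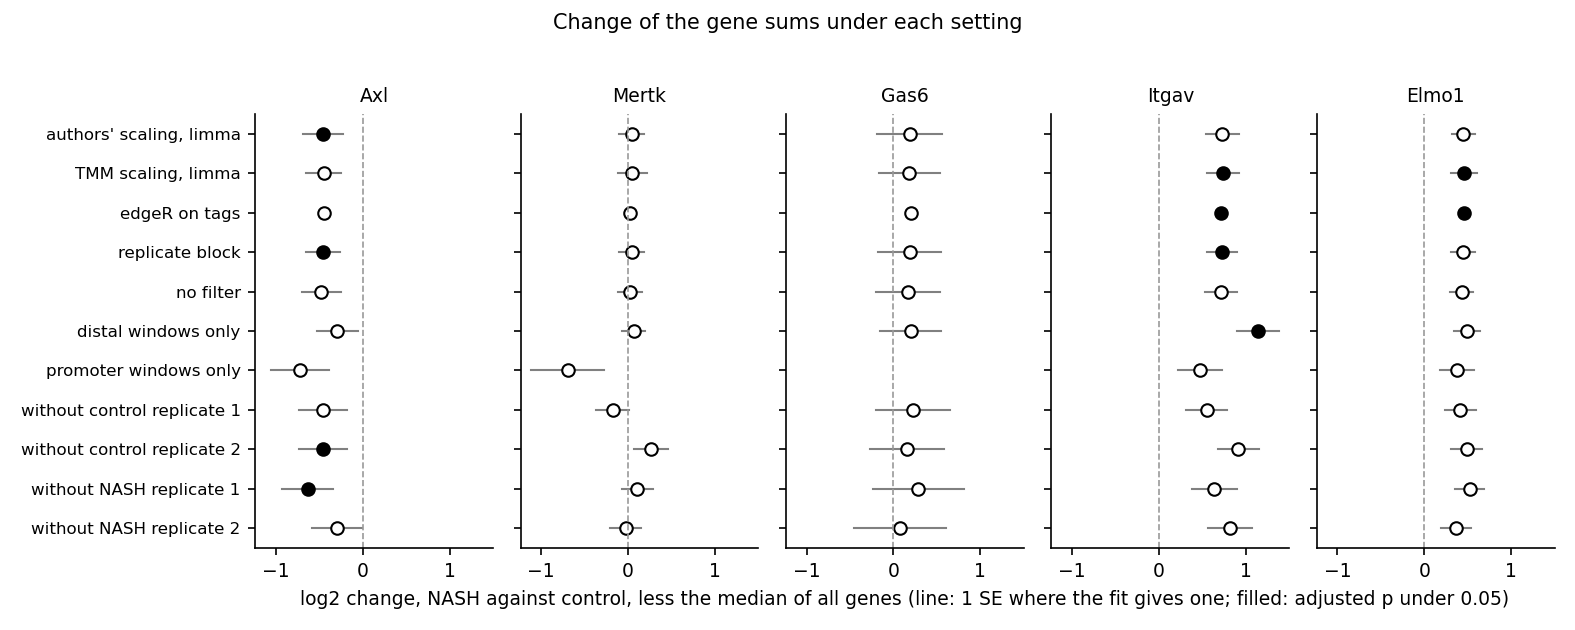
Log2 change of each gene sum, NASH against control, less the median of all genes (x axis), under 11 settings (y axis); lines are 1 SE where the fit gives one and filled points have an adjusted p under 0.05. Axl lies below 0 and Itgav, Elmo1 and Gas6 lie above 0 under every setting drawn, and Mertk crosses 0.

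Compared per length of window, Mertk had the highest mean level and Gas6 the lowest. Mean H3K27ac over the 4 libraries was 57.1 normalised tags per kb at Mertk, 48.2 at Axl, 41.3 at Elmo1, 37.8 at Itgav and 18.7 at Gas6, and the median of all tested genes was 45.9. In the control libraries Axl (64.6 and 55.9 per kb) and Mertk (57.2 and 66.9) overlapped and both exceeded Elmo1 (40.9 and 37.1) and Itgav (30.2 and 33.6). In the NASH libraries Axl (42.5 and 29.9) overlapped with Itgav (48.9 and 38.6), and Elmo1 (43.5 and 43.5) lay within the range of Itgav. Mertk (52.7 and 51.7) was above the other members in both NASH libraries.

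Factor sites at the members were more numerous in NASH, as they were in the lists as a whole. LXR sites at the 5 genes numbered 61 in control and 83 in NASH, ATF3 sites 28 and 68, and P300 sites 40 and 117. Each list stands for 1 diet, so no test between diets could be made, and a longer list finds more sites anywhere. Of the NASH sites at the members, 32.5% of LXR, 63.2% of ATF3 and 67.5% of P300 overlapped no control site, while over the whole lists these shares were 29.3%, 65.7% and 56.7%. Of the control sites, 5 of 61 for LXR, 3 of 28 for ATF3 and 2 of 40 for P300 had no NASH counterpart, against 17.8%, 17.4% and 10.1% of the whole lists. For LXR all 5 of these lay at Elmo1, and every control LXR site at Axl, Mertk, Gas6 and Itgav had a NASH counterpart.

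**Figure D5:**
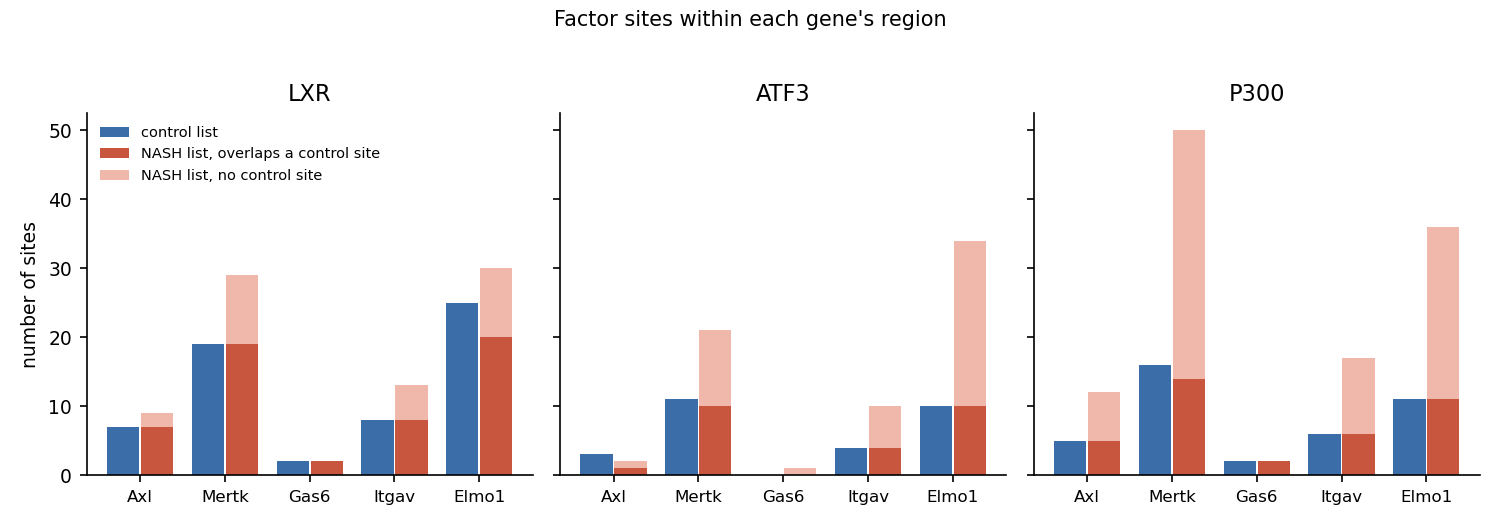
Number of LXR, ATF3 and P300 sites (y axis) within each gene's region in the control list and in the NASH list, the latter split by whether a site overlaps a control site by at least 1 bp. P300 at Mertk has 16 sites in control and 50 in NASH; Gas6 has 0 to 2 sites of any factor.

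By gene, the increase was uneven. Mertk had 19 LXR sites in control and 29 in NASH, 11 and 21 ATF3 sites, and 16 and 50 P300 sites. Of its 50 P300 sites in NASH, 36 (72%, against 56.7% of the whole list) overlapped no control site and 30 lay outside the accessible windows, as did 11576 of the 52628 sites of the whole list; the differences from the whole list were not tested. Elmo1 had 25 and 30 LXR sites, 10 and 34 ATF3 sites, and 11 and 36 P300 sites, spread over a region of 522.8 kb. Itgav had 8 and 13, 4 and 10, and 6 and 17. Axl had 7 and 9 LXR sites and 5 and 12 P300 sites, and 3 ATF3 sites in control against 2 in NASH. The ATF3 counts were equal between diets without the 5 kb flank (2 and 2) and with a flank of 20 kb (4 and 4). The ATF3 sites at the Axl promoter and 6.23 kb upstream were in the control list only, and that in intron 4 was in the NASH list only. Gas6 had 2 LXR and 2 P300 sites in each diet and 1 ATF3 site, in NASH. Per 100 kb of region in NASH, P300 sites numbered 76.2 at Mertk, 42.4 at Axl, 19.4 at Itgav, 9.95 at Gas6 and 6.89 at Elmo1.

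Member windows with and without factor sites carried these levels of H3K27ac. In control, the median was 7.73 normalised tags in the 53 member windows with an LXR site and 4.74 in the 32 without one; over all windows these medians were 7.90 and 2.91. In NASH they were 6.60 in 61 windows and 5.81 in 24, against 5.56 and 2.39 over all windows. The 15 member windows with no site of any factor in NASH had a median of 6.85, against 1.6 over all such windows. These are descriptions of windows that share genes and libraries, and the difference from all windows was not tested.

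The genes whose 4 library values, centred on their own mean, were nearest to each member by Euclidean distance were Exosc10 and Rit1 for Axl, Snw1, Hcst and Hyou1 for Mertk, Tchp, Tmem87a and Zdhhc20 for Gas6, Cct4, Susd3 and Osbpl3 for Itgav, and Mapkapk3, Rad18 and Brox for Elmo1. With 4 libraries such profiles are common: 92 of 10264 genes lay within a distance of 0.2 of Itgav, and 217 of Axl, 380 of Elmo1, 487 of Mertk and 488 of Gas6.

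The other genes of the pathway were taken from a list of 120, of which 105 could be tested. In the main fit 2 of them were called raised and 15 lowered (1.90% and 14.3%, against 2.89% and 11.0% of all genes), and 88 did not pass. With TMM scaling 10 were raised and 9 lowered (9.52% and 8.57%, against 7.25% and 6.20% of all genes). Their median log2 change was 0.02 relative to all genes.

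Among receptors that bind dying cells, Timd4 fell by 3.10 relative log2 units (limma adjusted p = 6.7e-09), and the scavenger receptors Stab1 and Stab2 fell by 1.20 and 0.93 (0.000227 and 0.0296). Cd36, a receptor for oxidised lipids, rose by 0.89 (limma adjusted p = 0.0435), from 88.73 and 86.22 to 147.20 and 120.64. Stab2 is also on the endothelial marker list and Timd4 on the Kupffer cell list, whose summed levels are given above, and their part in these changes was not tested. With Axl, 4 of the 17 tested receptors were thus lower and 1 raised, and with TMM 3 lower and 2 raised, Itgav being the second. Over all gene sums, 11.0% were lower and 2.89% raised, and with TMM 6.20% and 7.25%. Counts per role, here and below, are small, and their difference from these shares was not tested. Among bridging ligands and receptors for find-me signals, Edil3, which links phosphatidylserine to integrins, fell by 1.81 (limma adjusted p = 0.00326), and P2ry6, a nucleotide receptor, fell by 0.50 (0.0449, with TMM 0.137). The other 14 of 16 tested did not pass. With TMM 1 was lower and 2 raised: Lgals3, a galectin, at 373.91 and 400.60 in control and 439.45 and 462.80 in NASH (limma adjusted p = 0.236, with TMM 0.0245), and Cx3cr1, the fractalkine receptor, at 13.74 and 6.63 against 22.41 and 16.12 (0.169, with TMM 0.0413). These and the other genes called with TMM alone were named after their values were seen.

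Among the engulfment machinery, 4 of 22 genes were lower and none raised, and with TMM 2 were lower and 3 raised, namely Elmo1, Dock2 and Vav3. Dock1, the partner of Elmo1 in activating Rac, fell by 0.97 (limma adjusted p = 0.0223), from 45.41 and 28.30 to 14.94 and 14.04. Dock2, a related exchange factor of blood cells, was at 77.10 and 69.87 in control and 105.06 and 99.84 in NASH, and passed with TMM scaling and edgeR (limma adjusted p = 0.130, with TMM 0.00520, edgeR 0.00341). Vav3, another exchange factor for Rac, was at 96.09 and 75.60 against 110.92 and 102.96 (limma adjusted p = 0.308, with TMM 0.0236). Ptk2, focal adhesion kinase, fell by 0.99 (0.000405), and Abl1 and Wasf2, which act on actin, fell by 0.31 and 0.29 (0.0281 and 0.0116), both lost with TMM (0.268 and 0.254).

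Among genes of phagosome maturation, 4 of 23 were lower and none raised: Pik3c3, the lipid kinase that makes phosphatidylinositol 3-phosphate, fell by 2.24 (limma adjusted p = 4e-05), and Lamp1, Rab31 and Uvrag by 0.39, 0.35 and 0.27 (0.0107, 0.0126 and 0.0249). The last 3 did not pass with TMM (0.132, 0.175 and 0.326), under which Pik3c3 was the 1 lower gene and Rab5a, a GTPase of early endosomes, the 1 raised (145.76 and 147.25 against 160.00 and 193.44, limma adjusted p = 0.316, with TMM 0.0299). Among genes that respond to engulfed cargo, Slc16a1, a lactate transporter, rose by 2.50 (limma adjusted p = 2.2e-05), from 29.57 and 17.24 to 114.14 and 103.48. Rxra, the partner of LXR, fell by 0.62 (3e-05), Il10 fell by 0.79 (0.00109), and the other 17 of 20 did not pass. With TMM the cholesterol exporters Abca1 and Abcg1 were raised as well. Abca1 was at 704.46 and 702.60 in control and 899.76 and 798.20 in NASH (limma adjusted p = 0.0869, with TMM 0.0107), and Abcg1 at 409.81 and 408.12 against 467.21 and 465.40 (0.30, with TMM 0.0312). None of 12 inhibitors and sheddases was called in the main fit, and with TMM 1 was raised, the ubiquitin ligase Cblb (177.45 and 193.22 against 226.67 and 249.60, limma adjusted p = 0.123, with TMM 0.00654).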

How the data were processed

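H3K27ac, LXR, ATF3 and P300 ChIP-seq had been done on Kupffer cells of 2 diets, 2 libraries each; inputs and 1 peritoneal macrophage library were not analysed here. Per the file headers, the authors merged lists of accessible regions (control and 20-week diet) and counted H3K27ac tags in them with HOMER, giving a signal scaled to 10000000 tags per library (mm10). Whole tags could be recovered for 100% of values (within 0.02 of a whole number). Per the file headers, LXR and P300 sites were called for reproducibility between both libraries with IDR at a threshold of 0.05. The headers give no threshold for ATF3. Every list holds an IDR score deposited by the authors (unnamed for ATF3, read from its place and range); an enrichment score exists for LXR and P300 alone, used only to rank within a list, ties sharing the best rank. The header of the NASH LXR and P300 lists names them NASH30 and the accessible regions are named 20-week; no label gives a time on diet. Bowtie2, HOMER and DESeq2 are named in the submitters' processing notes, with builds mm10 and GRCm38.

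Gene sums add all windows naming a gene; 12 windows without a gene name, 0.0580% to 0.132% of tags, were left out. Changes were tested with limma 3.58.1 (R 4.3.3, trend) on log2(value + 1), features kept by edgeR 4.0.16 filterByExpr on recovered tags, adjusted by Benjamini-Hochberg over all features. Genes were called at an adjusted p of 0.05 and windows also at a log2 change of 1. Promoter windows lie within 1000 bp of the start site. Distances are HOMER's, positive downstream. The fits were tested on simulated counts with the same set spread between libraries for all features and without the shift toward lower values in NASH. Whether that spread matches these libraries was not tested, so the shares that follow hold for the simulated setting. Of simulated log2 changes of 1, 29.5% were called for gene sums and 7.22% for windows, by adjusted p alone. Of changes of 2, 92.9% and 69.4% were called. A difference that did not pass is therefore no evidence of an unchanged level. All 5 members were named; windows were named if nearest the start, highest, called, or among a gene's 4 windows with the best LXR sites, and pathway genes if called, up to 4 per role and direction. Members and lists were chosen with earlier results of these data known. SDs and SEs reflect the spread between libraries, and floors cover counting error only. The genes nearest to each member in profile were named up to 3 per member; 1 of them is not reported here.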

Additional observations from a re-analysis of the deposited data

How the results depend on the processing

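With 2 libraries per diet, calls at the members depended on single libraries and on scaling. Relative log2 changes of the gene sums under other settings, where a call changed: Axl lost its call with TMM (-0.45), edgeR (-0.44), no filter (-0.47), distal windows alone (-0.29) and promoter windows alone (-0.72). Itgav passed with TMM (0.74), edgeR (0.71), distal windows (1.14), and Elmo1 with TMM (0.46) and edgeR (0.46). Mertk turned to -0.69 with promoter windows alone. The cause was not tested. Leaving out each library gave Axl -0.63 to -0.29, Mertk -0.18 to 0.26 (negative without control replicate 1 or NASH replicate 2), Itgav 0.55 to 0.91, Elmo1 0.36 to 0.52, Gas6 0.08 to 0.29, and a distal-promoter difference at Mertk of 0.51 to 1.01. The edgeR fit of that difference was not run.

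Member windows called raised and lowered were 1 and 1, against 2 and 0 with TMM and with edgeR, 0 and 0 with no filter or a pseudocount of 0.5, and 0 to 1 of each when 1 library was left out. All windows raised and lowered numbered 720 and 1651, against 1200 and 903 (TMM), 1357 and 1130 (edgeR) and 136 and 170 (no filter), and 176 to 841 and 684 to 2211 without 1 library. All gene sums numbered 335 and 1278, against 841 and 719 (TMM), 857 and 764 (edgeR) and 224 and 806 (no filter), and 139 to 385 and 431 to 1935 without 1 library. The pathway list, members included, gave 2 raised and 16 lowered, against 12 and 9 with TMM and edgeR, 1 raised with no filter, and 1 to 2 raised and 7 to 24 lowered without 1 library. Over all windows, all gene sums and the list, the fewest were lowered without NASH replicate 2 and the most without control replicate 2.

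Whether the replicate numbers pair the libraries could not be told. With 2 libraries per diet, deviations from the diet mean mirror each other. Their correlation is therefore a single number, 0.032 for same-numbered and -0.032 for crossed libraries. As a replicate block the replicate numbers gave 2837 windows, 2263 gene sums and 25 pathway genes lowered, and Itgav passed at 0.73 (limma adjusted p = 0.0476).

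Named windows that changed sign were all uncalled: by edgeR Mertk at 48.8 kb (-0.26) and 51.7 kb (-0.014) and Elmo1 at 2.00 kb (-0.015), and Gas6 at 9.52 kb with a pseudocount of 5 (0.024). Without 1 library, sign changed at Axl 3.73 kb (-0.26 to 0.52), Mertk 47.8 kb (-0.54 to 0.61), 48.8 kb (-0.84 to 1.63) and 51.7 kb (-0.37 to 0.65), Gas6 9.52 kb (-0.077 to 0.060), Itgav 15 bp (-0.37 to 0.11), and Elmo1 2.00 kb (-0.47 to 0.64) and 90.4 kb (-0.13 to 0.95). Keeping sites at or above their list's median IDR score left 55 NASH LXR sites, 44 NASH ATF3 sites, and 18 control, 71 NASH and 18 shared P300 sites at the members; no other flank or overlap moved the number of control, NASH or shared sites summed over the 5 genes by over 1.5 times, while P300 sites in control only went from 2 to 5 with 50% reciprocal overlap and to 1 without a flank.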
